A study of Mus musculus with 12 samples.

Results

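The FoxO transcription factors and the insulin and IGF1 receptor pathway that controls them were followed through the gastrocnemius muscle of 12 mice. The 10 genes were taken by name from the 54532 genes of the expression table: Foxo1, Foxo3, Foxo4 and Foxo6, the receptors Insr and Igf1r, the receptor substrates Irs1 and Irs2, and the kinases Akt1 and Akt2. All 10 were in the table, and all 10 passed the filter on low values, a mean FPKM of at least 0.5 over the libraries. FPKM here means fragments scaled to gene length and to a scale factor of each library. FPKM is scaled to gene length, so levels of different genes can be set side by side.

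The animals were female ICR SCID mice, an immunodeficient strain that usually lacks mature T and B cells; their age is not given. TL mice bore an HT1080 tumour (a line from a human fibrosarcoma) under the skin and were given selpercatinib, which inhibits the receptor kinase RET, orally each day at 30 mg/kg for 19 days. TV mice carried the same tumour and received vehicle. NTV mice had no tumour and received vehicle. Each group had 4 libraries, 1 for each mouse that the labels name as a biological replicate, and no tumour-free mice given selpercatinib were analysed here. The series concerns cancer cachexia, in which patients with tumours lose muscle and fat. The tumour-bearing groups model 1 human cell line grown under the skin of an immunodeficient host.

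Insulin and IGF1 bind receptor tyrosine kinases, which phosphorylate IRS1 and IRS2. These adaptors recruit PI3-kinase, and the lipid it makes brings AKT to the membrane, where AKT is activated. AKT phosphorylates FoxO proteins and holds them in the cytoplasm. When insulin signalling is low, as in fasting, FoxO proteins enter the nucleus and raise genes of protein breakdown and autophagy in muscle, among them Trim63 and Fbxo32. In mouse and fly tissues FoxO factors also raise genes of the receptor pathway itself, such as Insr and Irs2. RNA levels do not show phosphorylation or the place of a protein in the cell.

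Reads assigned to genes ranged from 14939830 to 23580603 per library, and the members had between 8 reads (Foxo6) and 12185 reads (Irs2) in a library. The tissue label was met by the myofibre markers, whose 14 genes summed to 56618 to 64420 FPKM in TL, 55853 to 103000 in TV and 59175 to 73873 in NTV. Libraries TL 1 and TL 5 stood apart on principal component 2 of all tested genes, at 31.9 and 32.6, with the other 10 libraries between -16.6 and 3.07. Ucp1, which encodes the uncoupling protein of brown fat, was at 58.3 FPKM in TL 1, 3.97 in TL 5 and 53.4 in NTV 5, and at 1.06 or less in the other 9 libraries. The part that cells other than muscle fibres play in any result below was not tested.

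The sequences around the start sites are shown first for Irs2, Foxo1 and Foxo3, the members with the 3 largest rises in TV against NTV, and for Irs1, the paralogue of Irs2 that did not pass the test. One Akt1 window was added after the motif search, as the member window with the motif GTAAACA. RefSeq promoter windows of GRCm38.p6, the build called mm10, were found for 7 of the 10 members: Foxo1, Foxo3, Igf1r, Irs1, Irs2, Akt1 and Akt2. Each window holds 250 bases before and 50 bases from the start, 300 in all, read 5′ to 3′ on the gene's strand. Capitals mark every match, on either strand, to 7 motifs. These are GTAAACA (a FoxO motif), CAAAACA (the core of the insulin response sequence, seen as TGTTTTG on the other strand), and AGAACA (a glucocorticoid receptor half-site). The others are the STAT motif TTCNNNGAA, the E-box CACGTG, the GC box GGGCGG and the TATA box TATAAA. Irs2 is from chr8:11008880-11009179 and Irs1 from chr1:82291390-82291689, both on the minus strand. Foxo1 is from chr3:52268087-52268386 on the plus strand. Foxo3 is from chr10:42276646-42276945 and Akt1, the upstream of its windows, from chr12:112674835-112675134, both on the minus strand.
Irs2: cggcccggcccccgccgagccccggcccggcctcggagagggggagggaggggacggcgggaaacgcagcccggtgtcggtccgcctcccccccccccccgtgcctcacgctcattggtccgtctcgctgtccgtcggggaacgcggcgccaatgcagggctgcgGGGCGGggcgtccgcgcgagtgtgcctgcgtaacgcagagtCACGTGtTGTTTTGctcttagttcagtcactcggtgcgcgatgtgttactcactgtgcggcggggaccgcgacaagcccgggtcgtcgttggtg
Irs1: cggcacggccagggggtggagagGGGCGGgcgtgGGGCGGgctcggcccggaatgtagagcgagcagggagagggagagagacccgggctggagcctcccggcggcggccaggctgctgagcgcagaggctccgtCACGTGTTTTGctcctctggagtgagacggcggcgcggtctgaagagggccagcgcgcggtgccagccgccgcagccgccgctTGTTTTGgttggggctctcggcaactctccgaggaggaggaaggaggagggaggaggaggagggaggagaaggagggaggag
Foxo1: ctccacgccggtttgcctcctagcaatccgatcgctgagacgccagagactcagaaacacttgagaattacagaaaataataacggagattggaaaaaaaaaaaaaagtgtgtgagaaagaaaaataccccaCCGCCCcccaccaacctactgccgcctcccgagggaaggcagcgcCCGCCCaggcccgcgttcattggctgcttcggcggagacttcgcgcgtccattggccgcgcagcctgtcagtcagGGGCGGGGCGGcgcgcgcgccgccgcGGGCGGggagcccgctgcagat
Foxo3: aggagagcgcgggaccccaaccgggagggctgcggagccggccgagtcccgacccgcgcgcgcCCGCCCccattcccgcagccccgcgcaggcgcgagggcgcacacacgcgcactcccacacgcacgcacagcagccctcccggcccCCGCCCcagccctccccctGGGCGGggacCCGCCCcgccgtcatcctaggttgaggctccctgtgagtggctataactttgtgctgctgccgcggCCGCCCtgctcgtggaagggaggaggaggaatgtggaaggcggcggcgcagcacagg
Akt1: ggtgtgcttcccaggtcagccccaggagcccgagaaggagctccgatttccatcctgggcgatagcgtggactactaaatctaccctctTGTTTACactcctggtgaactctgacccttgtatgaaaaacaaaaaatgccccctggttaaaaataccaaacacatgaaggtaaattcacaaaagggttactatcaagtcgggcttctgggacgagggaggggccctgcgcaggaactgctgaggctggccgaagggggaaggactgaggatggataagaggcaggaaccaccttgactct

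The Irs2 window held an E-box at -44 and the insulin response core at -37, in the run CACGTGtTGTTTTG. The Irs1 window held the same letters overlapping in the run CACGTGTTTTG, with the E-box at -115 and the core at -111, and a second core at -32. Positions are those of the first base of a match, counted from the start site. Of 32851 promoter windows of this length, 7.15% held the E-box, 6.28% the core, 0.408% both, and 9 windows (0.0274%) had both with starts within 10 bases of each other. This pairing was looked for after both sequences had been read. The GC content was 72.0% for Irs2 and 71.3% for Irs1, against a median of 52.7% over all windows. The Irs2 start of RefSeq lay 471 bases from the start in the deposited table, and that of Irs1 23 bases.

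Neither the Foxo1 nor the Foxo3 window held the FoxO motif or the insulin response core, and each held 5 GC boxes, a motif found in 35.7% of windows. Among the windows of the 7 members the motif GTAAACA occurred once, as TGTTTAC at -161 of the upstream Akt1 window. It was found in 3.65% of all windows. A match describes letters and is not a measured binding site.

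The comparison of TV with NTV addresses how the muscle of tumour-bearing mice differs from that of tumour-free mice when both receive vehicle. Of the 10 members, 6 rose in TV (Irs2, Foxo1, Foxo3, Igf1r, Foxo4 and Akt1), 1 fell (Foxo6), and 3 did not pass the test (Insr, Irs1 and Akt2). Calls are those with an adjusted p under 0.05 in limma on log2(FPKM + 0.5). Of all 12754 genes tested, 13.8% were called higher, 11.5% lower and 25.2% in either direction. The 4 TV values lay wholly above the 4 NTV values for 7 members, the 6 that rose and Akt2, and wholly below for Foxo6, where 14.4% and 12.7% of all tested genes did so. The median log2 change was 0.67 over the members and 0.02 over all tested genes.

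Positions are those of the deposited table, on mm10. Values below are given in the order TL 1, 4, 5 and 7, TV 3, 4, 6 and 8, and NTV 2, 3, 5 and 6. Group values are mean ± SD (n = 4 each), changes are log2 differences of FPKM + 0.5 with the SE from limma, and adjusted p-values are over all tested genes. The added 0.5 understates the changes of weakly expressed genes such as Foxo6 and Igf1r. In bulk muscle, fewer cells of a type and less RNA per cell cannot be told apart.

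**Figure D1:**
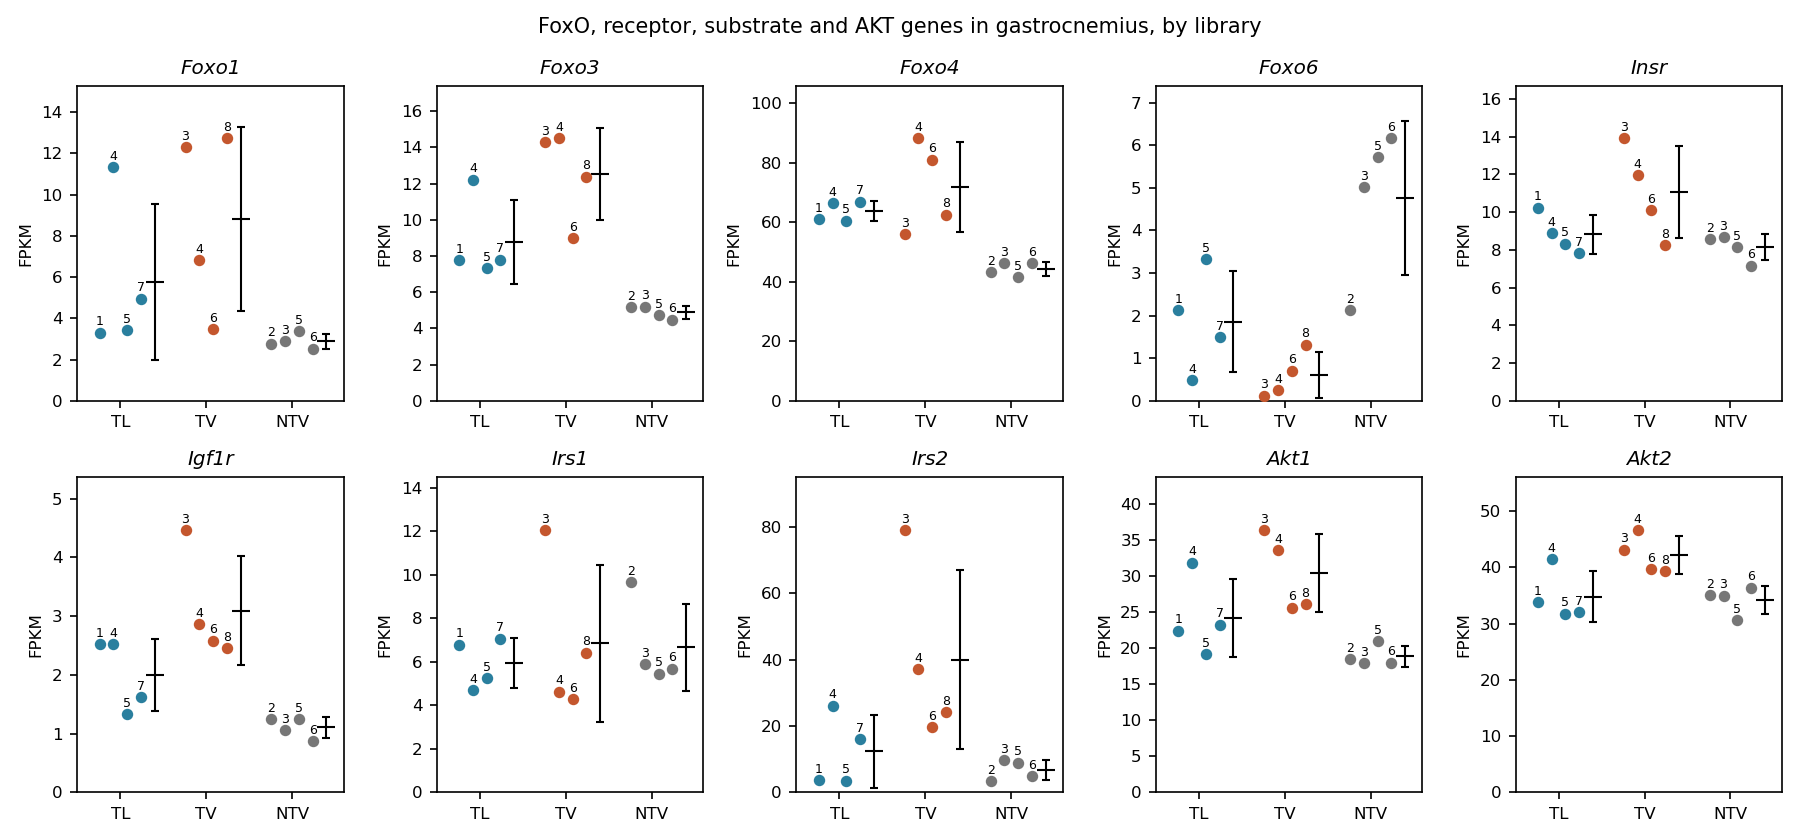
FPKM of each member in every library (points), with the group mean ± SD beside them, for TL, TV and NTV (4 libraries each); each panel has its own linear axis. Foxo4 stood at 56.1 to 88.2 FPKM in TV and 41.7 to 46.4 FPKM in NTV without overlap, and the TL points of Irs2 run from 3.53 to 26.2 FPKM, with TL 4 above TV 6 and TV 8.

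Foxo1 (ENSMUSG00000044167, chr3:52268336-52353221, plus strand) encodes a FoxO factor that drives atrophy genes in muscle. It was at 3.31, 11.3, 3.44 and 4.95 FPKM in TL, 12.3, 6.81, 3.49 and 12.7 FPKM in TV, and 2.77, 2.89, 3.38 and 2.53 FPKM in NTV. The lowest TV library, TV 6, lay just above the highest NTV library, and TL 4 lay among the TV values. Foxo1 averaged 8.83 ± 4.46 FPKM in TV and 2.89 ± 0.359 FPKM in NTV, a log2 change of 1.31 ± 0.40 (limma, adjusted p = 0.0343). The call ended without any 1 of TV 3, TV 4, TV 8 and the NTV libraries (adjusted p up to 0.0930). It also ended with no filter on low values (0.0765) and without TL 1, TL 5 and NTV 5, the Ucp1-rich libraries with over 2 FPKM of Ucp1 (0.0533).

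Foxo3 (ENSMUSG00000048756, chr10:42181841-42276755, minus strand) is a close relative of Foxo1, known for raising autophagy genes in muscle, and had the smaller spread. It was at 7.77, 12.2, 7.34 and 7.79 FPKM in TL, 14.3, 14.5, 8.99 and 12.4 FPKM in TV, and 5.19, 5.20, 4.72 and 4.48 FPKM in NTV. Every tumour-bearing library, treated or not, was above every NTV library. The change in TV against NTV was 1.25 ± 0.17 (limma, adjusted p = 0.00134), and it stayed called without any 1 library, with adjusted p up to 0.00555.

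Foxo4 (ENSMUSG00000042903, chrX:101254528-101260873, plus strand), an AKT-regulated FoxO factor, was the most abundant member. It was at 61.1, 66.5, 60.6 and 66.9 FPKM in TL, 56.1, 88.2, 81.0 and 62.6 FPKM in TV, and 43.2, 46.4, 41.7 and 46.3 FPKM in NTV. The NTV values again lay below all others, while TL fell within the TV range. Foxo4 averaged 72.0 ± 15.1 FPKM in TV and 44.4 ± 2.34 FPKM in NTV (0.67 ± 0.13, limma, adjusted p = 0.00486).

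Foxo6 (ENSMUSG00000052135, chr4:120267079-120287349, minus strand) is the most divergent FoxO factor and is known for shuttling less between nucleus and cytoplasm. It was at 2.13, 0.483, 3.33 and 1.4997 FPKM in TL, 0.126, 0.257, 0.708 and 1.32 FPKM in TV, and 2.14, 5.02, 5.72 and 6.16 FPKM in NTV. It was the member that fell: every TV library was below every NTV library, and TL spanned the gap. The TV values rest on 8, 12, 31 and 48 reads and the NTV values on 102, 220, 302 and 274 reads. The change was -2.29 ± 0.45 (limma, adjusted p = 0.00469), the 22nd lowest of all tested genes.

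**Figure D2:**
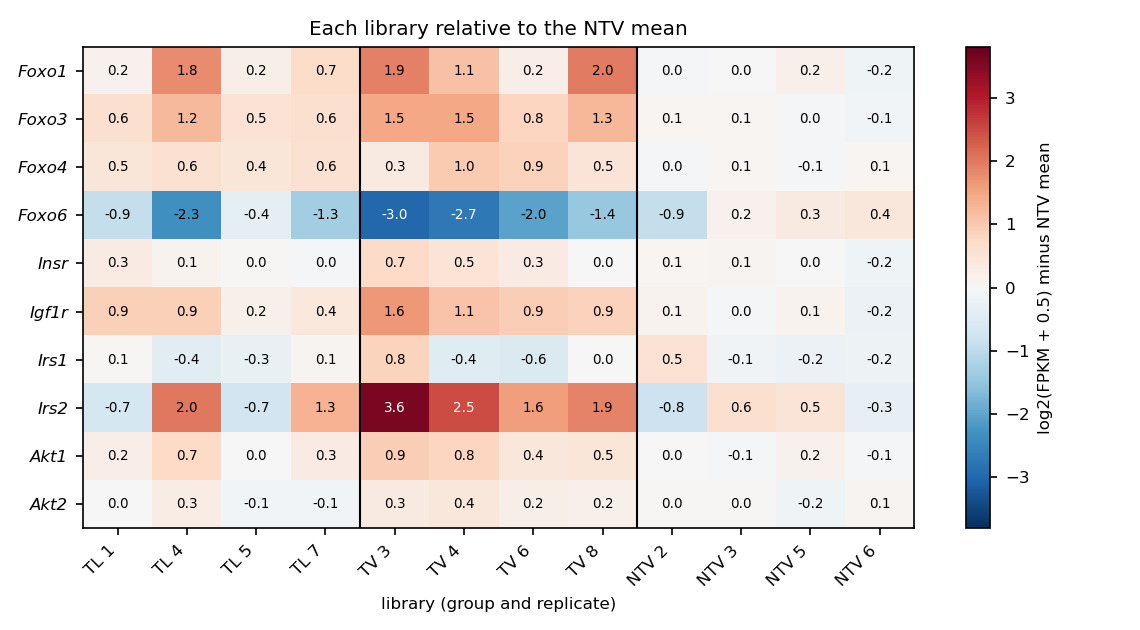
Difference of log2(FPKM + 0.5) from the NTV mean for each member (rows) in each of the 12 libraries (columns, TL then TV then NTV), with the value written in each cell. TL 4 resembles the TV columns for Foxo1 and Foxo6, whereas TL 1 and TL 5 are near the NTV level for Foxo1 and below the NTV mean for Irs2.

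Of the receptors, Igf1r, which binds IGF1, rose and Insr, which binds insulin, did not pass the test. Igf1r (ENSMUSG00000005533, chr7:67952827-68233668, plus strand) was at 2.53, 2.52, 1.33 and 1.62 FPKM in TL, 4.46, 2.86, 2.58 and 2.46 FPKM in TV, and 1.25, 1.06, 1.25 and 0.872 FPKM in NTV. The NTV values lay below all TL and TV values. Igf1r averaged 3.09 ± 0.931 FPKM in TV and 1.11 ± 0.180 FPKM in NTV (1.13 ± 0.20, limma, adjusted p = 0.00300). Insr (ENSMUSG00000005534, chr8:3122061-3279617, minus strand) was at 10.2, 8.89, 8.33 and 7.83 FPKM in TL, 13.9, 11.97, 10.1 and 8.27 FPKM in TV, and 8.58, 8.70, 8.13 and 7.17 FPKM in NTV. TV 8 lay inside the NTV range, and without it Insr was called (adjusted p = 0.0130), against 0.40 ± 0.14 and an adjusted p of 0.0594 by limma with all libraries.

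Irs2 had the largest rise of the members, the 21st highest of all tested genes, while Irs1 gave an estimate near 0. Irs2 (ENSMUSG00000038894, chr8:10984681-11008458, minus strand) was at 3.69, 26.2, 3.53 and 16.1 FPKM in TL, 79.1, 37.1, 19.7 and 24.3 FPKM in TV, and 3.38, 9.77, 8.97 and 4.90 FPKM in NTV. The lowest TV library held more than the highest NTV library, and TL split between the NTV and TV levels. Irs2 averaged 40.0 ± 27.1 FPKM in TV and 6.75 ± 3.10 FPKM in NTV, a log2 change of 2.38 ± 0.63 or 5.21-fold (limma, adjusted p = 0.0184). The call ended without TV 3 or NTV 2 (adjusted p up to 0.0539), and without TV 3 the change was 1.99.

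Irs1 (ENSMUSG00000055980, chr1:82233101-82291416, minus strand) was at 6.79, 4.71, 5.26 and 7.07 FPKM in TL, 12.1, 4.64, 4.27 and 6.42 FPKM in TV, and 9.67, 5.91, 5.46 and 5.69 FPKM in NTV. All 3 groups overlapped, with 1 high library each in TV and NTV. Its change in TV against NTV was -0.04 ± 0.28 (limma, adjusted p = 0.930), with a sign that changed without TV 4, TV 6 or NTV 2, with an equal FPKM total and with the replicate number as a block. Irs2 shares exon sequence with an antisense transcript, 9530052E02Rik, which averaged 0.267 FPKM, and Irs1 and Foxo1 share theirs with Gm9747 and Gm20402, both listed at 0. The use of strand in counting is not given in the sources used here, so reads of such pairs cannot be told apart.

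Akt1 (ENSMUSG00000001729, chr12:112653821-112674884, minus strand), the more widely expressed AKT kinase, was at 22.4, 31.9, 19.2 and 23.3 FPKM in TL, 36.4, 33.6, 25.6 and 26.1 FPKM in TV, and 18.5, 18.0, 21.0 and 18.0 FPKM in NTV. TV lay above NTV throughout, and the change was 0.66 ± 0.16 (limma, adjusted p = 0.0109). Akt2 (ENSMUSG00000004056, chr7:27591552-27640826, plus strand), the AKT kinase needed for insulin-stimulated glucose uptake, was at 33.8, 41.5, 31.8 and 32.1 FPKM in TL, 43.1, 46.6, 39.6 and 39.3 FPKM in TV, and 35.0, 34.9, 30.6 and 36.4 FPKM in NTV. The TV values of Akt2 also lay above all NTV values, but its change of 0.30 ± 0.10 did not pass (limma, adjusted p = 0.0569). Without TL 4 it did (0.0292), as the 3 groups share 1 spread.

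The comparison of TL with TV addresses what selpercatinib did in tumour-bearing mice. No member was called by limma or by voom on the recovered reads, where 0.517% of all tested genes were called by limma. At an unadjusted p under 0.05 there were 5 members, Foxo6 higher and Foxo3, Igf1r, Irs2 and Akt2 lower, against 16.1% of all tested genes. There were 7 such members without TL 4, TV 6 or TV 8, 3 without TV 4, 2 without TL 5, without TL 7 or with an equal FPKM total, and 0 without TL 1 and TL 5 or without the Ucp1-rich libraries. The 16.1% is that of the fit with all libraries, and the whole table moved in such fits too. Genes called over the table by limma went from 66 to 7 without TL 5 and to 282 without TL 4. These member counts therefore do not describe the members alone. The TL and TV values overlapped for all 10 members (7.42% of all tested genes did not overlap). The estimates were below 0 for 9 members and above 0 for Foxo6. TL is set against the same TV libraries that NTV is, so an extreme TV value moves both comparisons.

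**Figure D3:**
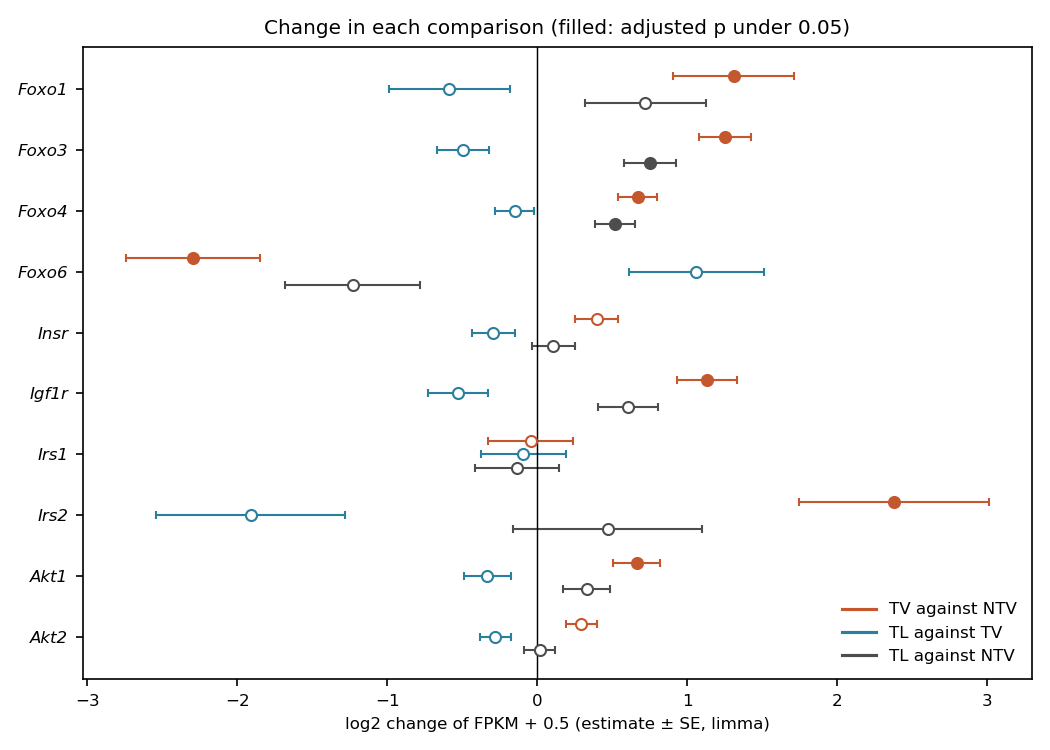
Log2 change of FPKM + 0.5 for each member in the 3 comparisons (estimate ± SE, limma); filled points have an adjusted p under 0.05. TV against NTV has 7 filled points and TL against NTV has 2, with none for TL against TV.

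The largest of these estimates was that of Irs2, at 12.4 ± 10.9 FPKM in TL and 40.0 ± 27.1 FPKM in TV (-1.91 ± 0.63, limma, adjusted p = 0.183). It was the 15th lowest of all tested genes. Without TL 1 and TL 5, the libraries that stood apart, the estimate was -0.73 (adjusted p = 0.797). Foxo6 was at 1.86 ± 1.19 FPKM in TL and 0.603 ± 0.541 FPKM in TV (1.06 ± 0.45, adjusted p = 0.277, limma), and at 0.47 without TL 1 and TL 5. Foxo1 gave -0.59 ± 0.40 (adjusted p = 0.512, limma), and -0.06 without them. Foxo3 gave -0.50 ± 0.17 (adjusted p = 0.198, limma) and was called lower without TL 4, with an estimate of -0.66 (0.0450). The other estimates ran from -0.53 for Igf1r to -0.09 for Irs1.

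The members did not sit at 1 level within TL. TL 4 had the highest TL value of Foxo1, Foxo3, Irs2, Akt1 and Akt2 and the lowest of Foxo6. TL 1 and TL 5 had the lowest Foxo1 and Irs2 of TL and its highest Foxo6. The share of mitochondrial reads was 10.1% in TL 1 and 13.9% in TL 5, 6.04% in TL 4 and 6.55% in TL 7, 5.08% to 7.70% in TV, and 11.6% to 13.5% in NTV. Its part in these values was not tested.

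The comparison of TL with NTV sets treated tumour-bearing mice against tumour-free mice. Foxo3 and Foxo4 were called higher in TL and no member lower, where 4.19% of all tested genes were called higher, 4.62% lower and 8.81% in either direction. Foxo3 averaged 8.78 ± 2.30 FPKM in TL and 4.90 ± 0.356 FPKM in NTV (0.75 ± 0.17, limma, adjusted p = 0.0219). Foxo4 averaged 63.8 ± 3.40 FPKM in TL and 44.4 ± 2.34 FPKM in NTV (0.52 ± 0.13, limma, adjusted p = 0.0327). For Foxo3, Foxo4 and Igf1r every TL value lay above every NTV value, as for 10.8% of all tested genes. The Foxo3 call ended without NTV 5 or NTV 6 (adjusted p up to 0.0622). That of Foxo4 ended without any 1 of TL 1, TL 4, TL 7 and the NTV libraries (up to 0.0858), with no filter (0.0584), and without TL 1 and TL 5 (0.0598). The calls of both Foxo3 and Foxo4 also ended without the Ucp1-rich libraries.

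The other members were not called in TL against NTV. Igf1r was at 2.00 ± 0.617 FPKM in TL and 1.11 ± 0.180 FPKM in NTV (0.61 ± 0.20, limma, adjusted p = 0.0778), and was called without TL 5 or TV 3 (0.0410 at the lowest). Foxo6 was at 1.86 ± 1.19 FPKM in TL and 4.76 ± 1.81 FPKM in NTV (-1.23 ± 0.45, limma, adjusted p = 0.102), and was called lower without TL 1 and TL 5 (0.0461). Irs2 was at 12.4 ± 10.9 FPKM in TL and 6.75 ± 3.10 FPKM in NTV, with an estimate of 0.47 ± 0.63 (limma, adjusted p = 0.669). That estimate ran from -0.04 without TL 4 to 0.87 without TL 5, and was 1.65 without TL 1 and TL 5.

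**Figure D4:**
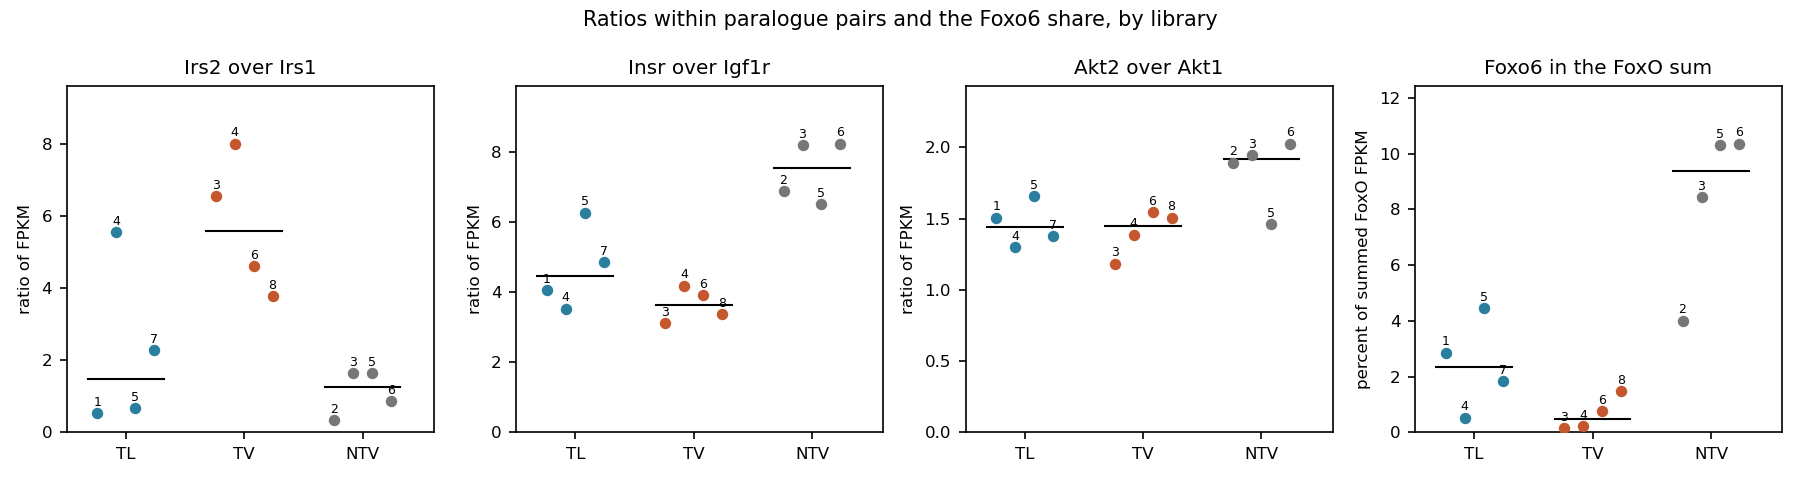
Ratios of FPKM within a library for Irs2 over Irs1, Insr over Igf1r and Akt2 over Akt1, and Foxo6 as a percent of the summed FPKM of the 4 FoxO genes, in TL, TV and NTV (points are libraries, lines are medians of 4). The TV points of Irs2 over Irs1 lie at 3.78 to 8.01, and the NTV points at 0.349 to 1.65.

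The balance between paralogues is given as a description of the same values. Irs2 over Irs1 was 0.543, 5.56, 0.671 and 2.28 in TL, 6.55, 8.01, 4.60 and 3.78 in TV, and 0.349, 1.65, 1.64 and 0.861 in NTV. Irs2 had the higher FPKM of the pair in every TV library, in TL 4 and TL 7, and in NTV 3 and NTV 5. Insr over Igf1r was 3.53 to 6.26 in TL, 3.11 to 4.19 in TV and 6.51 to 8.23 in NTV, and Insr had the higher FPKM in every library. Akt2 over Akt1 was 1.30 to 1.66 in TL, 1.18 to 1.55 in TV and 1.46 to 2.03 in NTV.

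The 4 FoxO genes together summed to 74.4 to 90.5 FPKM in TL, 82.8 to 109.7 FPKM in TV and 53.3 to 59.5 FPKM in NTV. Foxo4 made up 73.5% to 82.5% of that sum in TL, 67.7% to 86.0% in TV and 75.1% to 81.1% in NTV. Foxo6 made up 0.533% to 4.47% in TL, 0.152% to 1.49% in TV and 4.01% to 10.4% in NTV. Foxo1 ranged from 3.70% to 14.8% of the sum within TV alone.

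Genes around the members were counted from lists of the pathway. Over all tested genes, 13.8% were called higher and 11.5% lower in TV against NTV, and no list was tested against that share. Leaving out a library also moved the limma calls over all genes. In TV against NTV they went from 3217 to 2223 without TV 3 and to 3443 without TV 8. In TL against TV they went from 66 to 7 without TL 5 and to 282 without TL 4. List counts in such fits below therefore do not describe a list alone. Upstream, among 3 tested ligands, other receptors and further isoforms, 0 were called by limma and 1 had an unadjusted p under 0.05, with a median log2 change of -0.05. Igf1, the ligand that muscle also makes, was at 1.03 ± 0.334 FPKM in TV and 1.68 ± 0.469 FPKM in NTV (-0.51 ± 0.20, limma, adjusted p = 0.0840). Igf2r, which clears IGF2, was at 10.3 ± 0.525 FPKM in TV and 10.6 ± 0.706 FPKM in NTV.

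Of 22 adaptors and receptor brakes, 1 rose and 2 fell (median -0.01). Grb14, which binds and inhibits the insulin receptor, was at 1.25, 0.799, 1.68 and 0.936 FPKM in TL, 0.491, 0.794, 1.06 and 1.37 FPKM in TV, and 3.21, 3.57, 3.45 and 2.72 FPKM in NTV. Both tumour-bearing groups lay below NTV, with changes of -1.42 ± 0.20 in TV (limma, adjusted p = 0.00139) and -1.19 ± 0.20 in TL (0.00713). Gab1, a docking protein of receptor tyrosine kinases, rose in TV against NTV (0.64 ± 0.12). Both genes stayed called in TV against NTV without any 1 library. Sh2b1, an adaptor of the insulin receptor, was at 18.3 ± 3.67 FPKM in TV and 18.6 ± 1.26 FPKM in NTV.

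Of 18 PI3-kinase subunits and lipid phosphatases, 4 rose and 2 fell in TV against NTV (median -0.18). Pik3r1, the p85 regulatory subunit, was at 11.2, 15.7, 9.59 and 12.6 FPKM in TL, 10.6, 17.6, 6.02 and 6.54 FPKM in TV, and 5.29, 3.64, 4.13 and 4.32 FPKM in NTV. Every NTV value was the lower, and Pik3r1 rose in TV (1.03 ± 0.28, limma, adjusted p = 0.0202) and in TL (1.39 ± 0.28, adjusted p = 0.0131) against NTV. Pik3ip1, an inhibitor of PI3-kinase, rose in TV against NTV (0.97 ± 0.27, limma, adjusted p = 0.0246). Phlda3, which competes with AKT for the lipid that PI3-kinase makes, was at 47.5 ± 23.5 FPKM in TV and 76.8 ± 19.2 FPKM in NTV without passing. In TV against NTV the call of Pik3r1 ended without TV 3 or NTV 3 (adjusted p up to 0.0530), and that of Pik3ip1 without TV 3, TV 4, NTV 2, NTV 3 or NTV 5 (up to 0.0685). Without the Ucp1-rich libraries, which leaves fewer TL and NTV libraries, the calls of Pik3r1 against NTV ended in TV (limma, adjusted p = 0.0634) and in TL (0.0511). Its estimates in that fit were 1.01 in TV and 1.58 in TL. The call of Pik3ip1 in TV ended there too (0.86, limma, adjusted p = 0.0697), and also with no filter (0.0555). This list had 2 genes called without TV 3, and 3 without NTV 3 or the Ucp1-rich libraries.

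Of 19 kinases and brakes around AKT, 2 rose and 1 fell in TV against NTV (median 0.06). Mtor, the kinase of the complexes that respond to growth signals, rose by 0.51 ± 0.16, and Akt1s1, an AKT substrate that inhibits mTORC1, by 0.33 ± 0.10. Sgk1, a kinase related to AKT that also phosphorylates FoxO proteins, was at 82.0 ± 29.6 FPKM in TL, 68.7 ± 24.2 FPKM in TV and 33.9 ± 13.6 FPKM in NTV. It was called higher in TL against NTV (1.28 ± 0.35, limma, adjusted p = 0.0449) and not in TV against NTV (1.02 ± 0.35, adjusted p = 0.0529). In TL against TV, which tests the difference between these changes, Sgk1 was not called (0.26 ± 0.35, limma, adjusted p = 0.770). In TV against NTV, Sgk1 was called higher without any 1 of TL 1, TL 7, TV 8 and NTV 5 (limma, adjusted p down to 0.0215). So it was with a mean FPKM of at least 1 (limma, 0.0495), by voom (0.0413) and without the Ucp1-rich libraries (limma, 0.0324). The calls of Mtor and Akt1s1 in TV against NTV ended without some single libraries (limma, adjusted p up to 0.103 and 0.0913). That of Sgk1 in TL against NTV did so too (limma, adjusted p up to 0.114). Without NTV 2 or NTV 6 the list had 0 genes called by limma in TV against NTV and 4 at an unadjusted p under 0.05. It also had 0 with an equal FPKM total (4 at an unadjusted p under 0.05), 0 with no filter (5), 0 with only the 2 groups in the fit (5) and 1, which fell, with quantile normalization. The calls of Mtor and Akt1s1 ended in these fits (adjusted p up to 0.0867 for Mtor and 0.176 for Akt1s1).

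Of 20 AKT substrates and genes of glucose uptake, 5 rose and 1 fell (median 0.07). This list had 3 genes called without TV 3 or TV 6 or with an equal FPKM total, against 6. Foxk1, a forkhead factor controlled by mTOR signalling, rose in TV (1.03 ± 0.22), as did Tsc1, part of the complex that inhibits mTORC1 (0.78 ± 0.15). Slc2a4, the insulin-responsive glucose transporter GLUT4, was at 233 ± 25.0 FPKM in TV and 247 ± 22.6 FPKM in NTV (-0.08 ± 0.11, limma, adjusted p = 0.609). Of 30 FoxO modifiers and cofactors, 5 rose and 4 fell (median 0.04), and without TV 3 or with an equal FPKM total 5 were called in place of 9. Sirt1 and Sirt3 are deacetylases of the nucleus and of mitochondria. Sirt1 rose (0.69 ± 0.17) and Sirt3 fell (-0.97 ± 0.16). Ywhae, a 14-3-3 protein of the family that holds phosphorylated FoxO in the cytoplasm, was at 156 ± 8.74 FPKM in TV and 151 ± 8.12 FPKM in NTV.

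Downstream, 22 of 43 tested genes known to respond to FoxO factors rose and 2 fell in TV against NTV, with a median log2 change of 0.64. Pik3ip1 is in this list too. The genes called numbered 13 without TV 4, 14 without TV 3, 15 without NTV 2 and 15 with no filter on low values, against 24. Calls over all tested genes fell too, from 3217 to 2223 without TV 3 (limma). Eif4ebp1, a repressor of translation, was at 46.0, 69.6, 34.5 and 31.9 FPKM in TL, 170, 102, 57.5 and 69.3 FPKM in TV, and 9.78, 22.6, 12.9 and 14.1 FPKM in NTV. Its groups did not overlap between TV and NTV or between TL and NTV, and it rose in both (2.64 ± 0.35 and 1.58 ± 0.35). Ddit4, an inhibitor of mTORC1, rose in TV against NTV by 3.22 ± 0.95 (limma, adjusted p = 0.0287). The call of Ddit4 ended without TV 3, TV 4, TV 6, NTV 2 or NTV 6 (limma, adjusted p up to 0.0806). That of Eif4ebp1 in TL against NTV ended without TL 4, NTV 2, NTV 5 or NTV 6 (limma, adjusted p up to 0.0605). It also ended without the Ucp1-rich libraries, with an estimate of 1.65 (limma, adjusted p = 0.0931). Txnip, an inhibitor of glucose uptake, was at 263 ± 101 FPKM in TV and 244 ± 92.5 FPKM in NTV and did not pass.

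Trim63 and Fbxo32, the ubiquitin ligase genes named above, were high in libraries where Irs2 was high. Trim63 was at 43.5, 215, 49.4 and 134 FPKM in TL, 815, 425, 196 and 185 FPKM in TV, and 72.2, 118, 58.1 and 70.4 FPKM in NTV. Fbxo32 was at 17.2, 112, 30.7 and 61.3 FPKM in TL, 278, 277, 121 and 72.7 FPKM in TV, and 47.0, 54.5, 38.5 and 46.2 FPKM in NTV. TL 4 was the highest and TL 1 the lowest TL library for both genes. Irs2 had its TL high in TL 4 too, and its low in TL 5. In TV against NTV, Trim63 rose by 2.12 ± 0.56 and Fbxo32 by 1.79 ± 0.54 (limma, adjusted p = 0.0183 and 0.0319). The call of Trim63 ended without TV 3 (0.0501), and that of Fbxo32 without TV 3, TV 4 or any 1 NTV library (up to 0.0879) and with no filter (0.0717). In TL against TV neither was called (Trim63 -1.91, adjusted p = 0.148, and Fbxo32 -1.87, adjusted p = 0.146, limma), and without TL 4 Fbxo32 was called lower (0.0424). Pdk4, a brake on glucose oxidation, was at 60.8 ± 33.0 FPKM in TL, 345 ± 329 FPKM in TV and 158 ± 89.0 FPKM in NTV and was called in no comparison.

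**Figure D5:**
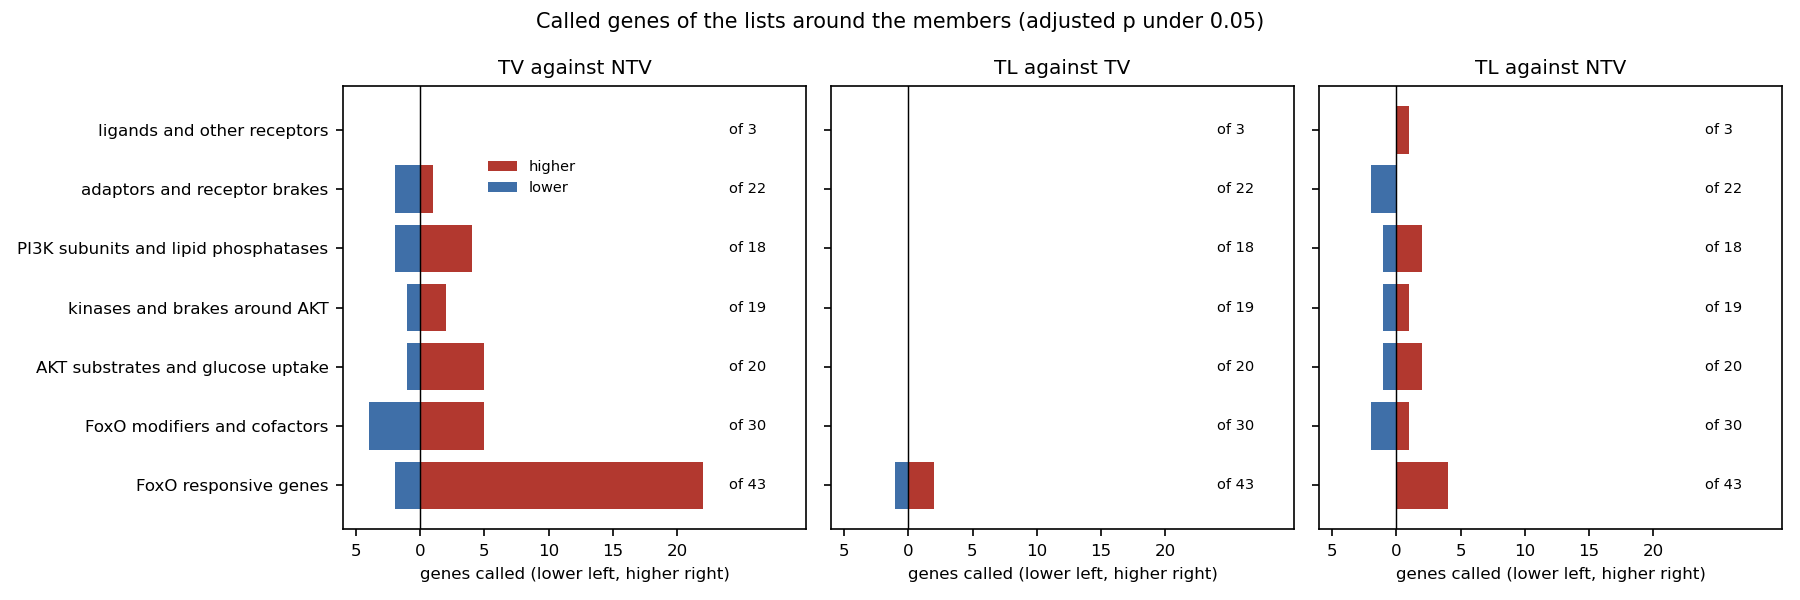
Number of genes called higher (right of 0) and lower (left of 0) at an adjusted p under 0.05 in each list around the members, for the 3 comparisons, with the number tested beside each bar. In TV against NTV the genes known to respond to FoxO factors have 22 higher and 2 lower of 43, and in TL against TV they are the one list with a called gene.

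In TL against TV, the genes called in these lists were 3 of the 43 in the FoxO-responsive list, 2 higher and 1 lower, with a list median of -0.37. At an unadjusted p under 0.05 there were 21. Over all tested genes 0.517% were called and 16.1% had an unadjusted p under 0.05 (limma), with a median of -0.003. Myod1, the myogenic transcription factor, was at 40.0, 32.2, 38.7 and 38.02 FPKM in TL, 11.7, 6.98, 17.2 and 10.998 FPKM in TV, and 18.6, 9.32, 7.21 and 11.1 FPKM in NTV. All TL values lay above all others (1.69 ± 0.28 against TV, limma, adjusted p = 0.0233). Sesn2, a stress-induced inhibitor of mTORC1, was the other that rose (0.60), and Ctsl, a lysosomal protease, fell (-0.77). The call of Myod1 ended without TL 1, TL 5, TL 7, TV 3 or TV 4 (adjusted p up to 0.0857), that of Ctsl without any 1 of 8 libraries (up to 0.118) and that of Sesn2 without any 1 of 11 (up to 0.138). By limma the list had 0 genes called without TL 1, TL 5, TL 7, TV 3 or TV 4 (17 or 18 at an unadjusted p under 0.05), 7 without TL 4 and 6 without TV 8. It also had 0 with no filter (21) or only the 2 groups in the fit (20). In TL against NTV, 4 of the 43 genes rose and 0 fell (median 0.18), where 4.19% of all tested genes were called higher and 4.62% lower (median 0.02). There, 1 was called without TL 4, NTV 2 or NTV 5 and 7 without TL 1 and TL 5.

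Markers of other cell types are given for TV against NTV beside the shares over all genes, 13.8% higher and 11.5% lower. Of 8 tested tendon cell markers, 7 fell, and all 9 summed to 18.8 to 48.3 FPKM in TL, 17.6 to 42.9 in TV and 67.4 to 130 in NTV. Of 12 markers of fibro-adipogenic progenitors 6 fell, with sums of 129 to 255 FPKM in TL, 188 to 317 in TV and 282 to 402 in NTV. Satellite cell markers summed to 26.3 to 40.8 FPKM in TL, 37.7 to 40.4 in TV and 22.7 to 27.5 in NTV, and 2 of 6 tested rose. Most of that sum was Itga7 and Cdh15, with medians over the libraries of 17.7 and 8.84 FPKM. The other markers of this list had medians of 1.44 FPKM or less, with Pax7 at 0.434. Myofibre markers had 4 higher and 1 lower of 14. The other lists had counts of 2 or fewer. Endothelial markers had 2 of 15 lower, with sums of 86.9 to 125 FPKM in TL, 109 to 147 in TV and 131 to 175 in NTV. Adipocyte markers had 1 of 13 higher, with sums of 189.8 to 1080 FPKM in TL, 243 to 945 in TV and 135 to 437 in NTV. Smooth muscle and pericyte markers had 1 of 10 higher, Schwann cell markers 1 of 9 lower, and macrophage markers 0 of 9 called by limma (0 at an unadjusted p under 0.05). Macrophage markers summed to 22.5 to 41.8 FPKM in TL, 25.4 to 58.7 in TV and 22.6 to 58.1 in NTV. The defining markers Lep, Ucp1, Kera and Chad were at 0 in 1 or 2 libraries each, and no other marker was. Their part in the members' changes was not tested.

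Of the genes outside the set, those most like each member over the 12 libraries were named by the Pearson r of log2(FPKM + 0.5), as a description of libraries that share groups and scaling. For Foxo3 they were Des, which encodes the muscle filament protein desmin, and Map1lc3a, an autophagosome protein (r = 0.98 for both). For Foxo1 they were Cnksr3 (0.95) and Hdgfl2 (0.94). For Igf1r they were Slc7a6, an amino acid transporter (0.98), and Kmt2b, a histone methyltransferase (0.97). For Irs2 they were Siah1a and Trim63, both ubiquitin ligases (0.96). The highest r for Irs1 were lower, 0.83 for Abi1 and Tnfrsf12a. Akt1 was most like Ino80 and Sart1 (0.97), Akt2 like Faf1 and Washc1 (0.94), Foxo4 like Nrd1 (0.96) and Insr like Arih1 (0.95) and Ssh2 (0.94).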

How the data were processed

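Gastrocnemius RNA of 12 mice was analysed, 4 each of TL, TV and NTV. Per the labels' protocols, poly(A) mRNA was purified and copied with random hexamers. HISAT2 2.05, DESeq2, featureCounts 1.5.0-p3 and the build mm10 appear in the submitters' processing notes, without their roles. The authors deposited FPKM for 54532 genes and 12 libraries, with gene positions and lengths. FPKM times length gave whole reads for 100% of values (tolerance 0.1 read), and the scale between libraries equalled median-of-ratios size factors, which assume that most genes do not differ. No pair of libraries within a group agreed to within counting error.

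All 12 libraries entered 1 fit of limma 3.58.1 (R 4.3.3) to log2(FPKM + 0.5), with a mean for each group and a trend of variance on mean. Genes under a mean FPKM of 0.5 were left out, and p-values were adjusted over the other 12754 by the Benjamini-Hochberg method. The steps were tested on simulated data with known changes in TV and noise drawn separately for each gene. In TV against NTV, 76 of 106 changes of log2 size 1 and 87 of 94 of size 2 were called, with 12 false calls. Far fewer genes changed there than were called in these data, so this does not measure the error of the calls above. The members and lists were chosen with earlier results of these data known, and nothing was adjusted over a list alone. The text names all members and, from each pathway list, the 2 called genes with the largest change in TV against NTV, the called gene with the largest change in TL against TV and the most abundant gene not called in TV against NTV. Igf1, Pik3r1, Sgk1, Pdk4, Trim63 and Fbxo32 are always named, with the 2 genes most like each member other than Foxo6. Some genes that this rule names are not reported here. Sesn2, Ctsl and Ucp1 were named after their values were seen. Alternatives were other pseudocounts, filters, scalings and fits, voom on recovered reads, and libraries left out; their use on lists and named genes was added after the data were seen. Motifs were searched on both strands of RefSeq windows of GRCm38.p6. Figures came from matplotlib 3.10.9 in Python 3.11.15 (pandas 2.3.3, numpy 2.4.6).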

Additional observations from a re-analysis of the deposited data

Results flagged for a closer look

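The highest and lowest library of each member in each group was compared with the others of its group, in 30 groups of 4. Chance alone sets apart about 1 in 20 such groups. In TL, Foxo3 was at 12.2 FPKM in replicate 4, far above the other TL libraries (7.34 to 7.79 FPKM), with a gap of 0.907 of the group's range. In NTV, Irs1 was at 9.67 FPKM in replicate 2, above the other NTV libraries (5.46 to 5.91 FPKM), with a gap of 0.895 of the range.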

How the results depend on the processing

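Of 750 values of single members under other settings, 711 kept their side of the threshold, 33 lost a call and 6 gained one. The sign changed in 13 of the 711, none of them called: 9 of Irs1, 3 of Akt2 in TL against NTV, and Irs2 in TL against NTV without TL 4. Calls of members numbered 7 in TV against NTV, 0 in TL against TV and 2 in TL against NTV. Leaving out 1 library at a time gave 5 to 8, 0 to 1 and 0 to 3. The 5 in TV against NTV was without TV 3 or NTV 2, the 1 in TL against TV was Foxo3 without TL 4, and the 0 in TL against NTV was without NTV 5 or NTV 6 (5 and 4 members at an unadjusted p under 0.05). With no filter on low values, TL against NTV had 1 called member. With libraries of over 2 FPKM of Ucp1 left out it had 0 called members, and 7 at an unadjusted p under 0.05 (limma).

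Calls over all genes were 3217 in TV against NTV (2223 to 3443 with 1 library left out), 66 in TL against TV (7 without TL 5 to 282 without TL 4) and 1123 in TL against NTV (514 without TL 4 to 1289). In TL against TV, 19 genes were called with no filter, 40 with an equal FPKM total (30 higher and 10 lower, against 30 and 36), 8 with only the 2 groups in the fit, 4 without TL replicates 1 and 5, and 0 without the Ucp1-rich libraries (908 at an unadjusted p under 0.05, limma). In TL against NTV, 742 were called with no filter, 729 with an equal total (459 higher and 270 lower, against 534 and 589) and 712 without the Ucp1-rich libraries. With the equal total the median log2 change of all genes in TL against NTV was 0.14, against 0.02. The cause of these moves was not tested.

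With the replicate number as a block, limma called 0 genes and 0 members in all 3 comparisons. TL 1, TL 7, TV 8 and NTV 2 share their number with no other library, so they add nothing to the changes in this fit. Little was then left to estimate the spread, so the lack of calls cannot decide whether the changes depend on the replicate number. At an unadjusted p under 0.05, this fit had 7, 1 and 2 members and 2711, 777 and 1422 genes. The labels do not say what the numbers mark. Deviations of same-numbered libraries from their group means had correlations of 0.01 to 0.13 in 4 pairs, which does not show that the numbers pair the libraries.

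Foxo6 rests on 8 to 48 reads a library in TV, which limits its precision. Foxo3, Foxo4, Foxo6, Igf1r and Akt1 stayed called in TV against NTV in each fit that left out 1 library.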
